A study of Mus musculus with 6 samples.

Results

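The myelin of peripheral nerve was examined through 8 genes chosen by symbol from the 48440 rows of the gene count table. The choice was made by symbol and role, with earlier results of these data known. They were *Mbp*, *Pmp22*, *Mal*, *Prx*, *Mag*, *Cnp*, and *Ncmap*, which encode proteins of the myelin sheath, and *Egr2*, which encodes the transcription factor that drives the myelin program. All 8 were found under 1 row each, and all 8 passed the filter on low counts. RNA sequencing was done on microinjected dorsal root ganglia (DRGs) of wild-type male mice, with 3 libraries for AAV5-*Gfp*, an adeno-associated virus of serotype 5 that expresses green fluorescent protein, and 3 libraries for AAV5-*V1* given together with AAV5-*V2* (written AAV5-*V1+V2*). These carry the transcript variants of *NIS-lncRNA*, a long noncoding RNA upregulated in DRGs by nerve injury. The injections were unilateral into the L3/4 DRGs, and no nerve was injured in either group. Tissue is said to have been collected at 5 weeks, and the profiles to compare DRGs at 4 weeks after microinjection. Each group received its own virus preparation, and effects of the preparation and of the transcripts cannot be told apart. Age, promoter, and the number of ganglia or mice in a library are not given in the sources used here. The libraries are labelled as separate replicates without a statement that they came from separate mice, so the p-values measure the spread between libraries, which may be technical in part.

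Schwann cells wrap the axons of sensory neurons in the ganglion and its roots, and those around larger axons build myelin, a stack of compacted membrane. Myelin formation follows neuregulin signals from the axon, and needs SOX10 and then EGR2, which switches on the genes of myelin proteins and of lipid synthesis. After nerve injury Schwann cells lower this program and take up a repair state. The comparison asks whether RNA of the myelin program differed between DRGs that overexpressed *NIS-lncRNA* and control DRGs.

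Each control library held 32618252 to 34764282 counts and each AAV5-*V1+V2* library 32025612 to 34228594. The 8 myelin genes held between 0.268% and 0.327% of these counts with AAV5-*Gfp* and between 0.296% and 0.319% with AAV5-*V1+V2*. Levels are given as CPM, the count of a gene relative to a library size scaled by the TMM method of edgeR. The Schwann cell label was set beside lineage markers, and whether these separate Schwann cells from satellite glia was not tested. *Sox10* had 39.0, 39.7, and 31.8 CPM in the controls and 37.9, 35.4, and 35.1 CPM with AAV5-*V1+V2* (here and later in the order of replicates 1, 2, and 3). *Erbb3*, a neuregulin receptor gene, was between 84.2 and 99.6 CPM in all 6 libraries, and *Foxd3* between 2.28 and 3.79 CPM. *Cdh19*, counted below among satellite glia genes as well, was between 208 and 299 CPM. Oligodendrocytes of the central nervous system also express *Mbp*, *Mag*, *Mal*, and *Cnp*, but the oligodendrocyte gene *Mog* had between 2 and 9 counts per library, *Hapln2* between 3 and 9, *Opalin* at most 4, and *Olig2* at most 1. The other genes of this list of 10 were *Ermn* with 4 to 8 counts, *Mobp* with 7 to 39, *Myrf* with 54 to 75, *Gpr37* with 159 to 328, *Cldn11* with 522 to 1136, and *Aspa* with 1263 to 1784. The last 3 therefore had 159 or more counts in every library, and only *Opalin* and *Olig2* had libraries with 0 counts. *S100b* (209 to 332 CPM) is shared by Schwann cells, satellite glia, and some neurons, so it does not mark myelinating cells alone.

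Positions are given in GRCm38 by GENCODE M21 for the genes other than *Mbp*. *Pmp22* lies on chromosome 11 from 63128982 to 63159547, and *Cnp* on the same chromosome from 100574904 to 100591729, both on the plus strand. *Prx* is on chromosome 7 from 27499324 to 27520214 on the plus strand, and *Mag* on chromosome 7 from 30899176 to 30914873 on the minus strand. *Egr2* is on chromosome 10 from 67535475 to 67542188 (plus strand), *Ncmap* on chromosome 4 from 135369576 to 135398227, and *Mal* on chromosome 2 from 127633226 to 127656695, both on the minus strand. Counts are given per gene, so that transcripts from different starts are not separated. Whether only exons were counted is not given in the sources used here. *Pmp22* has 5 annotated transcripts and *Mbp* has 16. *Cnp* shares 154 bases of its exons, 4.2% of them, with *Dnajc7* on the opposite strand, and the use of strand in counting is not given in the sources used here. *Dnajc7* lay between 67.0 and 74.2 CPM in the 6 libraries, with overlapping groups.

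Upstream sequence is shown because EGR2 and SOX10 act on myelin genes and because some have several start sites. RefSeq starts (GRCm38.p6) were matched for 7 of the 8 genes, *Mbp* being left out. The 250 bases before each start were searched on both strands for the EGR sites GCGTGGGCG and GCGGGGGCG, for GTGGGNG, a core that overlaps the first of them, and for the SOX hexamers ACAAAG and ACAATG. The longer EGR sites were in 0 of 17 windows of the 7 genes, and are present in 0.536% and 2.57% of the 32851 promoter windows of all genes. The core GTGGGNG is present in 28.1% of all windows, a share that was not limited to windows without exons. It was in 2 of the 10 windows that hold no annotated exon, those of *Prx* and *Ncmap*. It was also in windows of *Mag* and *Egr2* that overlap exons of these genes. Some windows of the same gene overlap each other. ACAAAG (16.5% of all windows) was in windows of *Mag* and *Cnp*, and ACAATG (10.7%) in none of the 17. The *Prx* and *Ncmap* windows are printed from 5′ to 3′ on the strand of the gene, with the matches of the core in capitals (either strand), *Prx* from chr7:27499074-27499323 (plus strand) and *Ncmap* from chr4:135398228-135398477 (minus strand). The windows before the pair of upstream *Pmp22* starts, chr11:63128732-63128981 and chr11:63131207-63131456 (plus strand), are printed because the count of *Pmp22*, the most abundant of the 8, sums transcripts from these and later starts. They hold no match to any of the 5 motifs. A match describes these letters and is not evidence of binding.
Prx: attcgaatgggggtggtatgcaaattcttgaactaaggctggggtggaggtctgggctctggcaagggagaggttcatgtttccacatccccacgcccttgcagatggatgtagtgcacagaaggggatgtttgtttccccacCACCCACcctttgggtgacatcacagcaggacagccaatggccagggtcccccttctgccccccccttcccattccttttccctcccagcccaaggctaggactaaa
Ncmap: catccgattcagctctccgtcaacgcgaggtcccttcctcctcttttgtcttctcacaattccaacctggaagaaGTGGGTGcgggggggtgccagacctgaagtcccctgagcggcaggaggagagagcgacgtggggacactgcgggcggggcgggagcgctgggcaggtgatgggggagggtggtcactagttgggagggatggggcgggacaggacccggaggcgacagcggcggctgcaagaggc
Pmp22, first start: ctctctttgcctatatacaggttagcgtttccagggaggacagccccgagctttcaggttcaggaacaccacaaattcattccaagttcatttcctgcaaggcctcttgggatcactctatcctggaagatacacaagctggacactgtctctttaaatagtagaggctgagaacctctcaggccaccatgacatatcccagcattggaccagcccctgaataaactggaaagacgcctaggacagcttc
Pmp22, second start: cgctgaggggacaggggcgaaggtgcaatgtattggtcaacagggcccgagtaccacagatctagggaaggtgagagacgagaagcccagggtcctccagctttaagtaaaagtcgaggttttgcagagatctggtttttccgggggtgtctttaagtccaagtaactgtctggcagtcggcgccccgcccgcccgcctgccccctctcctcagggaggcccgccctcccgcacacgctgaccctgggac

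None of the 8 myelin genes passed an adjusted p of 0.05 in the quasi-likelihood test of edgeR, adjusted by the Benjamini-Hochberg method over the 18593 genes tested, of which 15.3% were called (10.1% higher and 5.27% lower with AAV5-*V1+V2*). In whole ganglia, fewer cells of a type and less RNA per cell cannot be told apart. The abundant *Mbp* and *Pmp22* differed by less than the spread between replicates. *Egr2* and *Cnp* had the largest differences, at 1.19-fold and 1.17-fold, and only for these did every AAV5-*V1+V2* library lie above every AAV5-*Gfp* library, as for 23.4% of all genes tested. At an unadjusted p under 0.05 there were 2 of the 8, both higher, where 34.7% of all genes tested reached it (19.2% higher). DESeq2 called 1 of the 8, higher, where it called 21.6% of all genes (12.9% higher), and limma-voom called 0, where it called 12.2%. The 8 log2 fold changes (AAV5-*V1+V2* over AAV5-*Gfp*) ran from -0.06 to 0.25 with a median of 0.11, beside -0.0003 over all genes tested, and 6 were positive. By size alone, the median absolute log2 fold change was 0.11 for the 8 genes and 0.22 for all genes tested. The latter include many genes with low counts and large standard errors, and these medians were not matched for level. The widest 95% intervals of the 8 reached from -0.30 to 0.56 on the log2 scale. The median of the 8 was 0.19 in the fit that left out AAV5-*Gfp* replicate 1 and 0.03 in the fit that left out replicate 3.

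**Figure D1:**
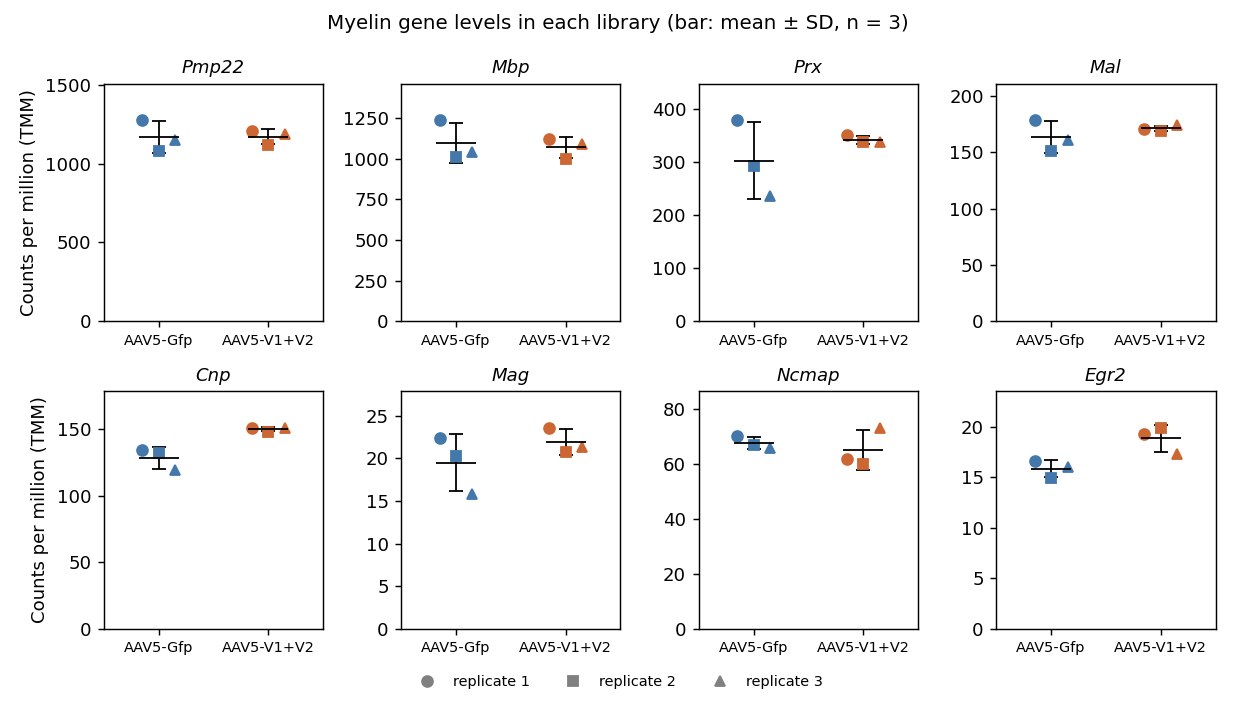
Level of each of the 8 myelin genes in CPM (TMM-scaled, linear axis from 0) in each library of AAV5-*Gfp* and AAV5-*V1+V2*. Points are libraries, with a symbol for each replicate number, and bars are means ± SD (n = 3). The groups overlap for *Pmp22*, *Mbp*, *Prx*, *Mal*, *Mag*, and *Ncmap*, and do not overlap for *Cnp* and *Egr2*.

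*Mbp*, encoding myelin basic protein that holds the cytoplasmic faces of the membrane together, was at 1240, 1010, and 1040 CPM with AAV5-*Gfp* and at 1120, 999, and 1090 CPM with AAV5-*V1+V2*. The highest value was in AAV5-*Gfp* replicate 1 and the groups overlapped. The means were 1100 ± 122 CPM (SD, n = 3) and 1070 ± 61.3 CPM (SD, n = 3), with a log2 fold change of -0.04 (95% interval -0.30 to 0.23). *Pmp22*, encoding a membrane protein of compact myelin whose gene dosage sets the course of inherited demyelinating neuropathies, was at 1280, 1080, and 1150 CPM with AAV5-*Gfp* and at 1210, 1120, and 1190 CPM with AAV5-*V1+V2*. All 3 AAV5-*V1+V2* values lay inside the range of the controls. Its mean was 1170 CPM in both groups (SD 103 and 47.8, n = 3), with a log2 fold change of 0.01 (95% interval -0.24 to 0.25).

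*Mal*, a proteolipid that sorts membrane proteins into myelin, was at 179, 151, and 161 CPM with AAV5-*Gfp* and at 171, 169, and 174 CPM with AAV5-*V1+V2*. The AAV5-*V1+V2* libraries were close to each other and inside the range of the controls. The log2 fold change was 0.06 (95% interval -0.12 to 0.25). *Ncmap*, which encodes a protein of noncompact myelin, was at 70.1, 67.0, and 65.7 CPM with AAV5-*Gfp* and at 61.6, 59.9, and 73.2 CPM with AAV5-*V1+V2*. Here AAV5-*V1+V2* replicate 3 lay above every control and the other 2 below every control. Its log2 fold change was -0.06 (95% interval -0.27 to 0.15).

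*Prx*, encoding periaxin that links the myelin sheath to the basal lamina through dystroglycan, was at 380, 292, and 236 CPM with AAV5-*Gfp* and at 351, 338, and 338 CPM with AAV5-*V1+V2*. The controls spanned the whole range of the treated libraries and had a coefficient of variation of 24.1%, against 2.13% with AAV5-*V1+V2*. The means were 303 ± 72.9 CPM and 342 ± 7.28 CPM (SD, n = 3), and the log2 fold change was 0.18 (95% interval -0.20 to 0.56). It was 0.38 without AAV5-*Gfp* replicate 1 and 0.03 without replicate 3, and the lowest adjusted p in any alternative (edgeR, DESeq2, or limma) was 0.112. *Mag*, encoding the adhesion protein of the membrane next to the axon, was at 22.4, 20.3, and 15.8 CPM with AAV5-*Gfp* and at 23.6, 20.7, and 21.3 CPM with AAV5-*V1+V2*. The groups overlapped, and AAV5-*Gfp* replicate 3 stood below the other 5 libraries. The log2 fold change of *Mag* was 0.16 (95% interval -0.15 to 0.48), and it was 0.27 without AAV5-*Gfp* replicate 1 and 0.03 without replicate 3.

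*Cnp*, encoding the cyclic nucleotide phosphodiesterase that keeps cytoplasmic channels open within myelin, was at 134, 132, and 119 CPM with AAV5-*Gfp* and at 151, 148, and 151 CPM with AAV5-*V1+V2*. The groups did not overlap, as for 45.4% of all genes tested in either direction. The means were 128 ± 8.11 CPM and 150 ± 1.85 CPM (SD, n = 3). The log2 fold change was 0.22 (standard error 0.07, 95% interval 0.06 to 0.39). The adjusted p of *Cnp* in edgeR was 0.0666. Of 15 alternative analyses *Cnp* passed the threshold in 2, DESeq2 (adjusted p = 0.0268) and edgeR with total counts only (adjusted p = 0.0443), and it ranged up to an adjusted p of 0.185. *Cnp* ranked 3668 of the 18593 genes by p. By exact permutation of the libraries (two-sided) p was 0.1, which is the lowest value possible with 3 per group.

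*Egr2* was at 16.6, 14.9, and 16.0 CPM with AAV5-*Gfp* and at 19.3, 19.9, and 17.3 CPM with AAV5-*V1+V2*. The groups did not overlap, although AAV5-*V1+V2* replicate 3 was close to AAV5-*Gfp* replicate 1. The means were 15.9 ± 0.886 CPM and 18.8 ± 1.39 CPM (SD, n = 3). The log2 fold change was 0.25 (standard error 0.09, 95% interval 0.04 to 0.46). Its adjusted p in edgeR was 0.101. It did not pass in any of the 15 alternatives, with adjusted p-values from 0.0573 to 0.274 and log2 fold changes from 0.20 to 0.32. The exact two-sided permutation p was 0.1, again the smallest possible. *Egr2* is also expressed by activated lymphocytes and by macrophages. The summed level of 14 lymphocyte markers was between 34.6 and 57.4 CPM with AAV5-*Gfp* and between 378 and 713 CPM with AAV5-*V1+V2*, and that of 15 macrophage markers was between 300 and 337 CPM and between 646 and 1620 CPM. Of these markers 13 of 14 and 11 of 15 were higher. Both sums were largest in AAV5-*V1+V2* replicate 1, whereas *Egr2* was highest in replicate 2. Their part in the level of *Egr2* was not tested.

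**Figure D2:**
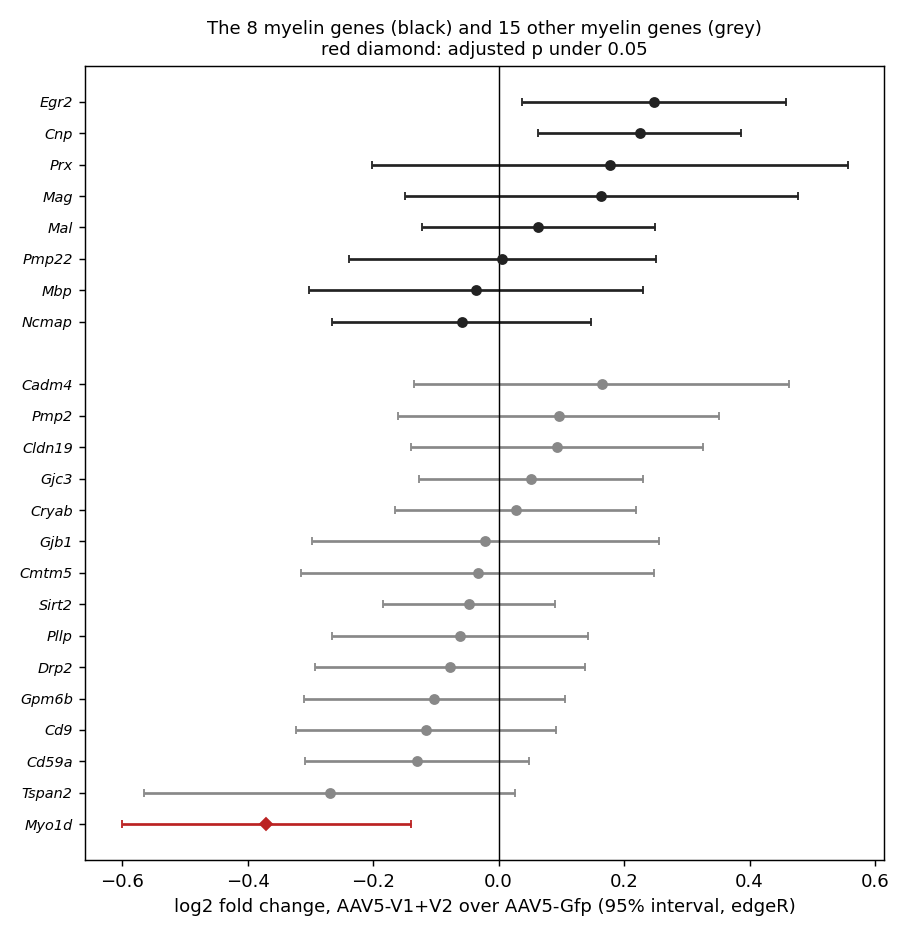
Log2 fold change of AAV5-*V1+V2* over AAV5-*Gfp* with its 95% interval from edgeR's quasi-likelihood fit, for the 8 myelin genes (black) and 15 other myelin genes (grey). *Mobp*, whose level was too low for a useful interval, and genes not reported here are not drawn. A red diamond marks an adjusted p under 0.05, which *Myo1d* had (-0.37). The intervals of *Egr2* and *Cnp* lie above 0 before adjustment for multiple tests.

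Levels of different genes were compared per length, as CPM per kilobase of merged exons. With AAV5-*Gfp*, *Pmp22* was the most abundant at 497 ± 43.1 (SD, n = 3), followed by *Mbp* at 129 ± 14.8, *Mal* at 58.9 ± 5.11, and *Prx* at 54.3 ± 13.0. *Cnp* was at 35.3 ± 2.24 and *Ncmap* at 30.4 ± 1.02, and the lowest were *Mag* at 4.79 ± 0.828 and *Egr2* at 4.66 ± 0.254. Within this order *Mal* and *Prx*, and likewise *Mag* and *Egr2*, had overlapping ranges in both groups, whereas the other neighbours did not overlap in either group. Merged exons hold every annotated transcript, 8469 bases for *Mbp* and 2354 for *Pmp22*, so a gene with long rare exons appears lower on this scale. If reads in introns were counted, which the sources used here do not say, a gene with many of them appears higher.

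The spread between libraries of a group was partly shared by the myelin genes. In AAV5-*Gfp* replicate 1 all 8 were above the mean of their group on the log2 scale. The deviations ran from 0.05 (*Ncmap*) to 0.36 (*Prx*) with a median of 0.13. The median of all genes deviated by 0 there, but scaling holds it near 0 in every library. AAV5-*Gfp* replicate 1 had the highest value of all 8 among the controls, and replicates 2 and 3 had the lowest value of 4 each. The share of all genes that were highest in AAV5-*Gfp* replicate 1 was not computed. In AAV5-*V1+V2* replicate 2, 7 of the 8 were below the mean of their group, with a median of -0.04. Deviations from the group means were closest for *Mbp* and *Pmp22* (Pearson r = 0.97), *Mag* and *Cnp* (0.94), *Pmp22* and *Mal* (0.94), and *Mag* and *Prx* (0.91), over 6 libraries that share depth and scaling factor for both genes. Over the 21 pairs without *Egr2*, r ranged from 0.18 to 0.97 with a median of 0.49. Over the 7 pairs with *Egr2* it ranged from -0.67 (*Ncmap*) to 0.42 (*Mal*), with no value above 0.5. These correlations describe 6 libraries and were not tested. Those of other gene pairs were not computed, so a spread particular to myelin genes is not shown.

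**Figure D3:**
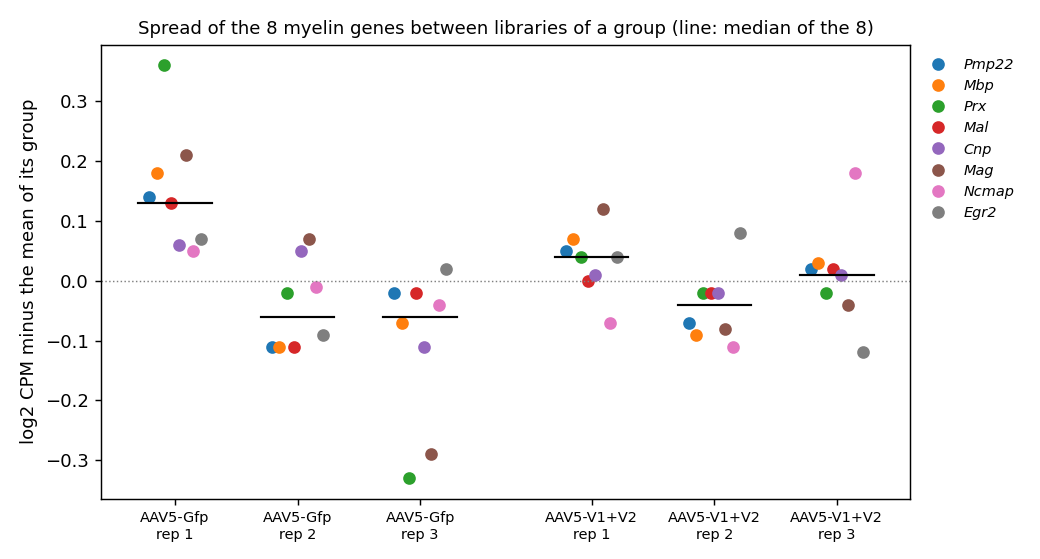
Deviation of each of the 8 myelin genes from the mean of its group (log2 CPM) in the 6 libraries. Each color is a gene and the horizontal line is the median of the 8. All 8 points of AAV5-*Gfp* replicate 1 are above 0 (median 0.13), and *Prx* and *Mag* are the lowest points of AAV5-*Gfp* replicate 3.

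Shifts within the set were examined by setting each gene against the median change of the other 7 in the same library. *Mbp* lay between -0.08 and 0.05 (log2, relative to the mean of the controls) with AAV5-*Gfp* and between -0.23 and -0.13 with AAV5-*V1+V2*. *Pmp22* lay between -0.09 and 0.05 and between -0.18 and -0.10. For these most abundant genes the groups did not overlap on this relative scale, whereas they did for the other 6. By their own levels *Mbp* and *Pmp22* were at -0.04 and 0.01 with overlapping groups, so the relative values also carry the change of the other genes. The share of all genes without overlap on such a scale was not computed. *Egr2* lay between -0.06 and 0.09 with AAV5-*Gfp* and between 0.01 and 0.29 with AAV5-*V1+V2*. *Cnp* lay between -0.07 and 0.13 and between 0.12 and 0.17. These are values relative to the set, given as a description with no test. Before this step 45.4% of all genes tested did not overlap between groups, and none of the 8 passed the test.

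Of the other genes of myelin structure, 0 of 18 tested were higher and 1 was lower (median log2 fold change -0.04, 6 positive). The most abundant gene of the list reported here, *Gpm6b*, which encodes a membrane protein of glia and neurons, was at -0.10 on the log2 scale (standard error 0.09). The lower gene was *Myo1d*, an unconventional myosin that is not particular to myelin, which fell from 84.7 ± 10.9 to 65.5 ± 3.15 CPM (SD, n = 3; log2 fold change -0.37, adjusted p = 0.0463 from edgeR's test). It did not pass with limma-voom or with total counts only. Of 10 measured genes mutated in demyelinating neuropathies edgeR called 0, with a median of -0.07. At an unadjusted p under 0.05 there were 3, *Litaf* (0.67), *Gdap1* (-0.37), and *Fig4* (-0.18), and DESeq2 called *Litaf* and *Fig4*. *Litaf*, a gene of endosomal sorting, is also induced in macrophages, and *Ndrg1*, a Schwann cell gene of one such disease, was at 0.02 (standard error 0.07).

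None of 12 tested transcription regulators of myelination was called by edgeR, with a median log2 fold change of 0.22. At an unadjusted p under 0.05 there were 4. They were *Nab1* (0.27, adjusted p = 0.0564) and *Nab2* (0.48, adjusted p = 0.0729), which encode the corepressors that bind EGR proteins, *Yy1* (0.37, adjusted p = 0.0766), and *Pou3f2* (-0.37, adjusted p = 0.0766), all from edgeR. DESeq2 called *Nab1*, *Nab2*, and *Yy1*. *Sox10* was at -0.03 (standard error 0.10). The most abundant of this list, *Zeb2*, *Tead1*, and *Wwtr1*, were at 0.19, -0.09, and 0.12. Among 25 genes of myelination signalling, 2 were higher and 1 was lower (median -0.03). The axonal ligand *Nrg1* fell from 346 ± 39.7 to 216 ± 36.4 CPM (SD, n = 3; log2 fold change -0.68, adjusted p = 0.0262 from edgeR's test). *Adam17*, a protease that cleaves neuregulin and many other surface proteins, rose by 0.61, and *Igf1*, a growth factor made by macrophages among others, rose by 0.42 on the log2 scale. The neuregulin receptor genes *Erbb2* and *Erbb3* were at -0.02 and -0.04.

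Lipid synthesis genes, which EGR2 and the SREBP factors drive during myelination and which neurons and satellite glia also express, were below 0 in 28 of 31 cases (median log2 fold change -0.19), but edgeR called 0 of 31, with 8 at an unadjusted p under 0.05. DESeq2 called 3, the sterol genes *Lss* (-0.35) and *Fdft1* (-0.32) and the fatty acid elongase *Elovl6* (-0.27), and limma-voom called 0. The summed level of the list was between 4830 and 5000 CPM with AAV5-*Gfp* and between 3790 and 4530 CPM with AAV5-*V1+V2*. The most abundant, *Scd2*, *Scd1*, and *Hmgcs1*, had log2 fold changes of -0.17, -0.28, and -0.21. *Ugt8a* and *Fa2h*, which make the galactolipids typical of myelin, were at -0.01 (standard error 0.09) and -0.05 (standard error 0.09). These last genes were named after their values were seen.

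A further list held genes of the node of Ranvier, of the flanking paranode, where the axon meets the edge of the sheath, and of neighbouring parts. Of these, 6 of 14 were lower and 0 were higher (median -0.43). The 6 were *Ank3* (-0.60), *Sptbn4* (-0.53), *Cadm1* (-0.53), *Nfasc* (-0.47), *Cntnap1* (-0.43), and *Cadm3* (-0.42). Over all genes tested edgeR called 5.27% lower. At an unadjusted p under 0.05 in edgeR there were 11 of the 14, beside 34.7% of all genes tested. DESeq2 called 10 of them, beside 21.6% of all genes. *Ank3*, *Sptbn4*, *Cntnap1*, and *Cadm3* act on the axon, and *Nfasc* encodes both a glial and an axonal form, which a count per gene does not separate. *Gldn*, made by the Schwann cell, was at -0.06 (standard error 0.08). Neuronal markers lay below 0 in 20 of 20 cases (median -0.40), of which edgeR called 3 lower. At an unadjusted p under 0.05 in edgeR there were 12 of the 20, and DESeq2 called 10. The summed level of these markers was between 12300 and 13300 CPM with AAV5-*Gfp* and between 7870 and 11300 CPM with AAV5-*V1+V2*.

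Markers of the immature or repair state of Schwann cells did not move one way. Of 12 tested, *L1cam* (-0.53) and *Cdh2* (-0.53) were lower, and *Clcf1* (1.25) and *Gfap* (0.82) were higher. *L1cam* and *Cdh2* are adhesion genes that neurons and other cells express as well, *Clcf1* encodes a cytokine, and *Gfap* is a filament gene of glia. *Ngfr*, the neurotrophin receptor raised in denervated Schwann cells, was at -0.15 (standard error 0.14). Of 10 tested transcription factors of this state, *Id2*, an inhibitor of differentiation that immune cells also express, was higher (0.48, adjusted p = 0.0234 from edgeR's test) and 0 were lower. The median was 0.39, with 8 of 10 positive and 6 of 10 at an unadjusted p under 0.05, where 34.7% of all genes reached it. These were *Id2*, *Runx2* (0.72, adjusted p = 0.0728), *Egr3* (0.63), *Egr1* (0.57, adjusted p = 0.0575), *Sox4* (0.37), and *Hey2* (-0.39), by edgeR. DESeq2 called *Id2*, *Egr1*, and *Runx2*. *Egr1* and *Egr3* are immediate early genes of many cells, and *Runx2* is also expressed by immune cells. *Jun*, the main regulator of the repair state, was at 0.14 (standard error 0.09, adjusted p = 0.279 by edgeR), and *Notch1* at 0.00 (standard error 0.07).

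**Figure D4:**
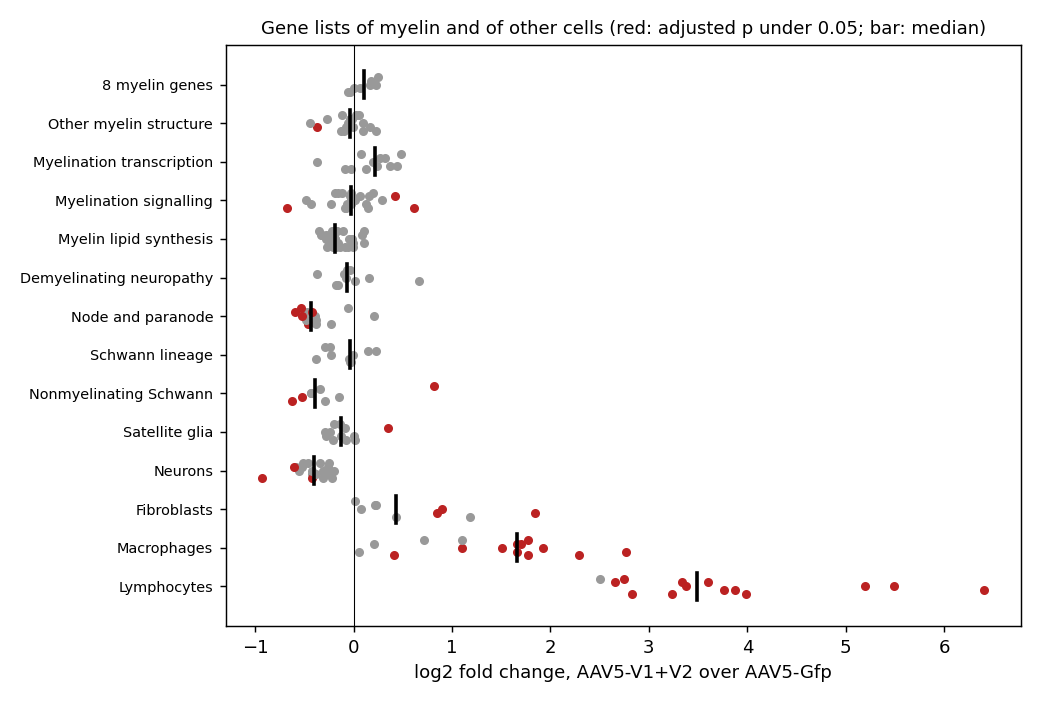
Log2 fold changes of AAV5-*V1+V2* over AAV5-*Gfp* for the genes of 14 lists, 1 point per gene tested. Red points had an adjusted p under 0.05 in edgeR's test, and bars are list medians. The 8 myelin genes lie between -0.06 and 0.25, beside medians of -0.40 for neurons, 1.66 for macrophages, and 3.49 for lymphocytes.

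Of 10 Schwann lineage genes edgeR called 0 (median -0.04), with 8 below 0. Their summed level was between 1780 and 1800 CPM with AAV5-*Gfp* and between 1350 and 1710 CPM with AAV5-*V1+V2*, without overlap. Abundant genes weigh most in this sum. *Scn7a*, *S100b*, and *Cdh19* had means of 608, 323, and 279 CPM with AAV5-*Gfp* and of 497, 248, and 236 CPM with AAV5-*V1+V2*. *Sox10* and *Erbb3* were at -0.03 and -0.04 on the log2 scale. *Scn7a*, the most abundant of the list and a sodium channel gene that neurons also express, was at -0.29 (standard error 0.13). At an unadjusted p under 0.05 there was 1, *S100b*, at -0.38 (standard error 0.11, adjusted p = 0.0600 from edgeR), which DESeq2 called lower. Among 8 genes used for nonmyelinating Schwann cells, many of which neurons share, *Cadm2* (-0.62) and *L1cam* were lower and *Gfap* was higher. Of 12 satellite glia genes *Slc1a3*, a glutamate transporter, was higher (0.35) and 0 were lower. Medians were 0.43 for fibroblasts (3 of 9 higher), 0.06 for perineurium (0 higher, 1 of 7 lower), 0.04 for vessels (1 higher and 1 lower of 10), -0.32 for the 5 oligodendrocyte genes that could be tested (*Aspa* lower), 0.42 for adipocytes, and 0.11 for erythrocytes. Of the 5 adipocyte, 5 erythrocyte, and 7 skeletal muscle genes tested, edgeR, DESeq2, and limma-voom called 0, and 1 erythrocyte gene, *Hba-a2* (0.61), had an unadjusted p under 0.05. Skeletal muscle genes were uneven (median -1.62), with summed levels of 85.3, 1060, and 431 CPM with AAV5-*Gfp* and of 334, 141, and 35.4 CPM with AAV5-*V1+V2*. The control in which all 8 myelin genes were highest, AAV5-*Gfp* replicate 1, had the least muscle RNA of the controls, and the part of muscle RNA in the spread of the myelin genes was not tested.

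The calls named for these lists were not all kept when a library was left out. Such fits also have fewer libraries, and the part of this in the lost calls was not tested. The 8 lists of the myelin pathway held 132 genes tested, of which 15 were called. This was a smaller share than the 15.3% that edgeR called over all genes tested. Without AAV5-*Gfp* replicate 1, 2, or 3, 0 of the 15 passed in each case, and without AAV5-*V1+V2* replicate 2 only *L1cam* did. Without AAV5-*V1+V2* replicate 1 or 3, 14 passed, *Cdh2* being lost in the first case and *Myo1d* in the second. With limma-voom *Myo1d*, *Gfap*, and *Igf1* did not pass, and with total counts only *Myo1d* and *Sptbn4* did not. Over all genes tested, the fits without AAV5-*Gfp* replicate 2 or 3 called 12 and 15 genes higher and 0 lower with edgeR (2916 and 2932 higher, 2029 and 1815 lower at an unadjusted p under 0.05). The 0 of 8 for the myelin genes held in each of these fits, which call few genes of any kind.

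The pattern of the 8 genes over the 6 libraries, taken as the mean of their standardized log2 CPM, was highest in AAV5-*Gfp* replicate 1 (0.76) and lowest in AAV5-*Gfp* replicate 3 (-0.92), with 0.49, -0.06, and 0.48 in the AAV5-*V1+V2* libraries. Among the 14724 candidates, other genes whose mean log2 CPM was 1 or more, those most like it were *Mto1* (r = 0.993), *Yjefn3* (0.991), *Rpn2* (0.987), *Snhg8* (0.971), and *Pthlh* (0.962), over 6 libraries. *Cldn19*, the claudin of Schwann cell tight junctions, ranked 20 (r = 0.932) and was named after its value was seen. The other myelin genes looked up, *Drp2* and *Pllp*, ranked 1836 (r = 0.583) and 3007 (r = 0.497), and *Sox10* ranked 4239 (r = 0.401). Each of the 8 was also set against the mean of the other 7, where *Prx* followed most closely (r = 0.88), and *Egr2* (0.36) and *Ncmap* (0.05) least.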

How the data were processed

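RNA sequencing was done on microinjected DRGs, with 3 libraries per group. The deposited values are raw read counts, whole numbers for each gene symbol in 1 table. The labels give GRCm38 (mm10) as the build and a stranded total RNA kit. The aligner, the counter, the annotation, and the use of strand are not given in the sources used here. Libraries of a group differed by more than sampling noise (chi-square per degree of freedom from 8.27 to 48.9).

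The analysis used edgeR 4.0.16 under R 4.3.3 (filterByExpr by group, TMM, glmQLFit and glmQLFTest without a covariate), with Benjamini-Hochberg adjustment over 18593 genes and a threshold of 0.05. The standard error is the absolute log2 fold change divided by the square root of F, and the 95% interval uses the test's degrees of freedom. Log2 CPM used a prior count of 2. The fit was tested on simulated data with changes larger than those of the 8 genes, so changes as small as theirs were not covered. Gene coordinates, exon lengths, and overlaps came from GENCODE M21, and upstream sequence came from RefSeq (GRCm38.p6). Alternatives were RLE, upper quartile, and total counts, other filters, DESeq2 1.42.0, limma-voom (limma 3.58.1), robust empirical Bayes, a replicate block, and leaving out each library. The 8 genes and the 21 other lists were chosen with earlier results of these data known. Named list genes came from the 3 most abundant of a list, its 3 called genes with the smallest p, those behind a count of 5 or fewer, and the 5 genes most like the set. Genes outside this rule were chosen after their values were seen: *Litaf*, *Gdap1*, *Fig4*, *Lss*, *Fdft1*, *Elovl6*, *Hba-a2*, *Nfasc*, *Sptbn4*, *Egr1*, *Egr3*, *Sox4*, *Ugt8a*, *Fa2h*, *Cldn19*, *Drp2*, *Pllp*, *Jun*, *Erbb2*, *Erbb3*, *Gldn*, *Sox10*, and the marker genes of the label check, named for their known roles. Some genes of the lists, counted in the list totals, are not reported here by name.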

Additional observations from a re-analysis of the deposited data

How the results depend on the processing

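Across 15 alternatives 0 of the 8 myelin genes were called lower, and 1 (*Cnp*) was called higher with DESeq2 and with total counts only, against 0 otherwise. The median log2 fold change of the 8 ran from 0.09 to 0.17 in the 9 alternatives with all libraries, and from 0.03 (without AAV5-*Gfp* replicate 3) to 0.19 in the 6 fits without one replicate, in which the number of the 8 called ranged from 0 to 0. *Mag*, *Prx*, *Egr2*, *Mal*, and *Cnp* kept a positive value in all 15, whereas *Mbp*, *Pmp22*, and *Ncmap*, never called, changed sign in 3, 4, and 1. Over all genes, 12 to 2474 were higher and 0 to 1446 lower in the fits that left out one replicate, against 1872 and 980, and DESeq2 called 1606 lower. The share of calls that were higher was 74.6% with total counts only, against 65.6%. The cause of these differences was not tested.

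The replicate number was not a pairing by the labels, and deviations from group means correlated by 0.036, 0.066, and 0.107 for numbers 1, 2, and 3 over all genes tested. Each control library correlated best with its own number, a hint from the data only. With the replicate number as a block, 2118 genes were higher and 1341 lower, 0 of the 8 were called, and their median was 0.12. *Igf1* did not pass with the block. The lowest count of the 8 was 493 (*Mag*).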
